A study of Homo sapiens with 2 samples.

Results

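Of 17895 cell barcodes in 2 single-cell RNA sequencing libraries of A375, a human melanoma cell line, 602 held little RNA and little mitochondrial RNA at the same time. They are called shallow barcodes here. They were selected on their own totals, in each library apart: at least 500 genes detected, 1000 to 3000 UMIs, and under 4% of UMIs from mitochondrially encoded genes. A UMI is a molecular tag that counts each captured RNA molecule once. The CTL persister library held A375 cells still alive after NY-ESO-1 CTLs, cytotoxic T lymphocytes directed at a cancer-testis antigen, had been in the culture for 15 days. Those cells were kept in medium with 7.5 ng/mL IL-2, and CTLs were added again every 3 days. The parental library held untreated A375 cells, and the labels do not say whether these received IL-2. Cells of both cultures were detached with trypsin, and the libraries come from the 10x Chromium 3' v3 chemistry, which reads the 3' ends of polyadenylated RNA.

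The persister library had 365 shallow barcodes among 7144, or 5.11% (95% exact Clopper-Pearson interval 4.61 to 5.64%), and the parental library had 237 among 10751, or 2.20% (1.94 to 2.50%). Among barcodes that met the gene minimum and had 1000 to 3000 UMIs, the shares were closer. They were 69.8% of 523 (65.65 to 73.7%) in the persister library and 64.4% of 368 (59.3 to 69.3%) in the parental library. Each group has 1 library, so no test between groups is possible and none was run. All intervals cover counting error only. The libraries held 80802724 UMIs (persister) and 88214007 UMIs (parental), with a median of 10805 and 7550 UMIs per barcode. Shallow persister barcodes had a median of 1567 UMIs, 988 genes and 2.03% mitochondrial UMIs. Shallow parental barcodes had a median of 1910 UMIs, 1130 genes and 2.03% mitochondrial UMIs. They were compared with the deeper barcodes of the same library, those with at least 5000 UMIs and at most 20% mitochondrial UMIs (5942 persister and 9094 parental), each thinned at random to 1500 UMIs. Levels are counts per 1000000 UMIs of genes not encoded in mitochondria (CPM), summed over the barcodes of a class. The mitochondrial share, the depth and the gene number chose the barcodes and are no result about them. The 2 libraries shared 38 barcode sequences, 3 of them shallow barcodes in each library.

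**Figure D1:**
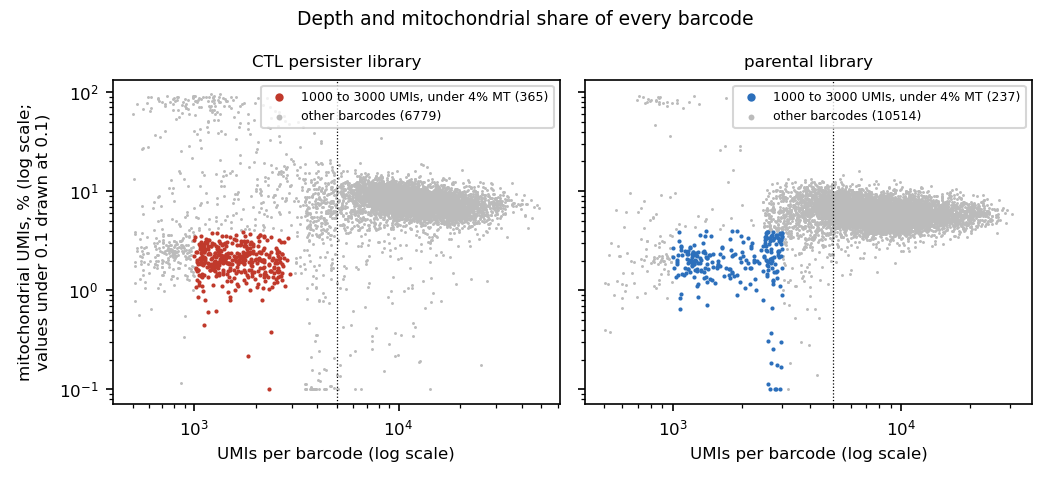
Each point is a barcode, with its UMIs on the x axis and the percentage of them that is mitochondrially encoded on the y axis (both log scales). Coloured points are the 365 persister and 237 parental shallow barcodes, grey points are all others, and the dotted line marks 5000 UMIs. Shallow persister barcodes lie in 1 cloud around 2% mitochondrial UMIs, below the main cloud, while the parental ones also reach the low-depth end of the main cloud between 2500 and 3000 UMIs.

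A cell whose membrane has opened loses cytosolic RNA while RNA held in mitochondria stays behind, and its mitochondrial share goes up. A stripped nucleus has little mitochondrial RNA and is rich in RNAs that stay in the nucleus, such as MALAT1, a long non-coding RNA of nuclear speckles, and NEAT1, the scaffold of paraspeckles. Messenger RNAs of ribosomal proteins and of the respiratory chain are short, stable and mostly cytosolic, and mRNAs of secreted and membrane proteins are translated at the endoplasmic reticulum.

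Nuclear long non-coding RNAs, summed, were not higher in the shallow barcodes than in all deeper barcodes of their library, and the name nucleus-like is not used for them. Against the deeper persister barcodes under 4% mitochondrial UMIs alone they were 1.41-fold higher, and shallow parental barcodes under 2500 UMIs were at 1.03 (0.991 to 1.07). MALAT1 (chromosome 11, 65497688 to 65506516, plus strand; positions are from GENCODE 29 on GRCh38) was at 17232 CPM in shallow persister barcodes, against 17456 CPM in deeper ones, a fold of 0.987 (0.968 to 1.01). The parental values were 8776 CPM in shallow and 9229 CPM in deeper barcodes, a fold of 0.951 (upper bound 0.981). NEAT1 (chromosome 11, 65422774 to 65445540, plus strand) was lower: 912.8 against 2348 CPM in the persister library, a fold of 0.389 (0.356 to 0.423), and 671.1 against 1270 CPM in the parental library, a fold of 0.528. All 11 nuclear long non-coding RNAs found in the files summed to 18400 against 20022 CPM (persister) and 9593 against 10647 CPM (parental). That is a fold of 0.919 (0.901 to 0.937) and 0.901 (0.874 to 0.929), below 1 under each of the 4 scalings tried. Of the 4 measured members in each library, at a mean of at least 50 CPM over both classes, 0 were at least 2-fold higher, where 16.3% of all measured persister genes and 1.49% of parental ones were. NEAT1 in the persister library was at least 2-fold lower, as were 5.88% of all measured genes. FTX, a non-coding RNA of the X-inactivation centre that was too low to count as measured, was at 41.9 against 12.9 CPM in the persister library (25 and 106 UMIs) and 24.0 against 15.9 CPM in the parental library. KCNQ1OT1, an imprinted antisense RNA, was at 140.9 against 120.8 CPM in the persister library, and JPX, a regulator of XIST, at 65.4 against 73.9 CPM.

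A high level of these RNAs was found in other barcodes of the same depth. The 36 persister and 4 parental barcodes with 1000 to 3000 UMIs and over 20% mitochondrial UMIs held 51261 and 60848 CPM of the nuclear list. Barcodes of the same depth with 4 to 20% mitochondrial UMIs, counted without those holding 2 or more T cell markers, held 23006 (53 persister barcodes) and 10787 CPM (127 parental barcodes). In the 131 deeper persister barcodes that also had under 4% mitochondrial UMIs, MALAT1 was at 11505 CPM. The sign of this comparison in the persister library therefore depends on which deeper barcodes are used, a setting added after the data were seen.

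Clone-named genes, which are mostly uncharacterised non-coding transcripts with names such as AC118549.1, were also not higher as a group. They summed to 3597 against 4323 CPM in the persister library, a fold of 0.832 (0.796 to 0.869), and to 2889 against 3344 CPM in the parental library, a fold of 0.864 (0.818 to 0.913). Of 4 measured ones in the persister library 3 were at least 2-fold lower (AL035541.1, AP001453.2 and AC245297.3), as were 5.88% of all measured genes. AC118549.1 was at 68.8 against 44.1 CPM. Genes named as antisense or overlapping transcripts had folds of 0.694 (persister) and 0.722 (parental), and LINC genes 0.889 and 0.886. Genes known for detained introns or nuclear speckles had folds of 1.16 and 1.05, which were below 1 when sums were scaled by TMM (0.880 and 0.927). Of these lists, clone-named, antisense and LINC genes were below 1 under each of the 4 scalings in both libraries. Host genes of small nucleolar RNAs and cytosolic non-coding RNAs had folds of 0.646 (persister) and 0.982 (parental), the second of which was 1.02 over all UMIs.

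Against the deeper barcodes, 3 protein-coding genes were far higher in the shallow barcodes of both libraries: C1orf56 (also called MENT), PHKG1, the catalytic subunit of muscle phosphorylase kinase, and LRRC75A, a leucine-rich repeat protein. C1orf56 (chromosome 1, 151047740 to 151051986, plus strand) was at 669.5 CPM (605.4 to 738.5) in shallow persister barcodes, against 35.9 CPM in deeper ones, 18.6-fold higher (16.0 to 21.7). The parental level was 237.5 CPM (195.0 to 286.5) in shallow and 15.1 CPM in deeper barcodes, 15.8-fold higher. LRRC75A (chromosome 17, 16441577 to 16492153, minus strand) was at 411.1 against 23.5 CPM in the persister library and 233.1 against 24.7 CPM in the parental library, 17.5-fold and 9.43-fold higher. PHKG1 (chromosome 7, 56080283 to 56092996, minus strand) was at 161.1 against 7.31 CPM and at 67.5 against 4.76 CPM, 22.1-fold and 14.2-fold higher. In the parental library PHKG1 was too low to count as measured. These 3 genes, with MALAT1 and NEAT1, were put forward with results of these data in view, so their levels are a description.

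The 3 genes were spread over many shallow barcodes, not concentrated in a few. C1orf56 had 399 UMIs in 232 of 365 shallow persister barcodes, with at most 6 in 1 barcode, and 109 UMIs in 82 of 237 shallow parental barcodes, with at most 3. At 1500 UMIs per barcode it was seen in 62.4% of 194 shallow persister barcodes (55.1 to 69.2%), against 4.56% of 5942 deeper ones, and in 22.4% of 147 shallow parental barcodes (16.0 to 30.1%), against 2.07% of 9094 deeper ones. This left out 171 shallow persister and 90 shallow parental barcodes under 1500 UMIs. Without thinning the shares were 63.6% against 23.6% (persister) and 34.6% against 12.1% (parental), where the deeper barcodes had a median of 11926 and 8164 UMIs. LRRC75A was seen in 42.8% against 2.98% and 25.2% against 3.29% at 1500 UMIs, and PHKG1 in 20.6% against 1.01% and 10.9% against 0.671%. At least 2 UMIs of the 3 genes together were found in 47.4% of shallow persister barcodes against 1.14% of deeper ones, and in 20.4% against 0.407% in the parental library. A share of 17.5% of shallow persister barcodes and 52.4% of shallow parental barcodes had none at that depth. The 3 genes were not particular to the shallow barcodes. LRRC75A was seen in 25.2% of shallow parental barcodes, against 24.6% of 118 parental barcodes of the same depth with 4 to 20% mitochondrial UMIs, and C1orf56 in 22.4% against 16.9%. Their persister counterparts with under 2 T cell markers had C1orf56 in 37.8% of 37 and PHKG1 in 18.9%, and those with 2 or more T cell markers had C1orf56 in 9.26% of 54. Whether the last share is free RNA was not tested.

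Each of the 3 genes has exons that overlap a gene on the other strand: C1orf56 overlaps CDC42SE1, PHKG1 overlaps SUMF2, and LRRC75A overlaps LRRC75A-AS1. The sources used here do not state how strand entered the counting, and whether reads of these pairs were kept apart was not tested. CDC42SE1, a CDC42 effector, was at 198.0 against 91.7 CPM in the persister library and 167.8 against 55.7 CPM in the parental library. SUMF2, of the sulfatase-modifying factor family, was at 73.8 against 52.4 CPM and 58.8 against 49.3 CPM. Such an overlap was found for 38.3% of the genes at least 2-fold higher in shallow persister barcodes and 42.8% of all measured ones. The longest run of A in an annotated transcript was 27 bases for C1orf56, 6 for PHKG1 and 5 for LRRC75A.

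**Figure D2:**
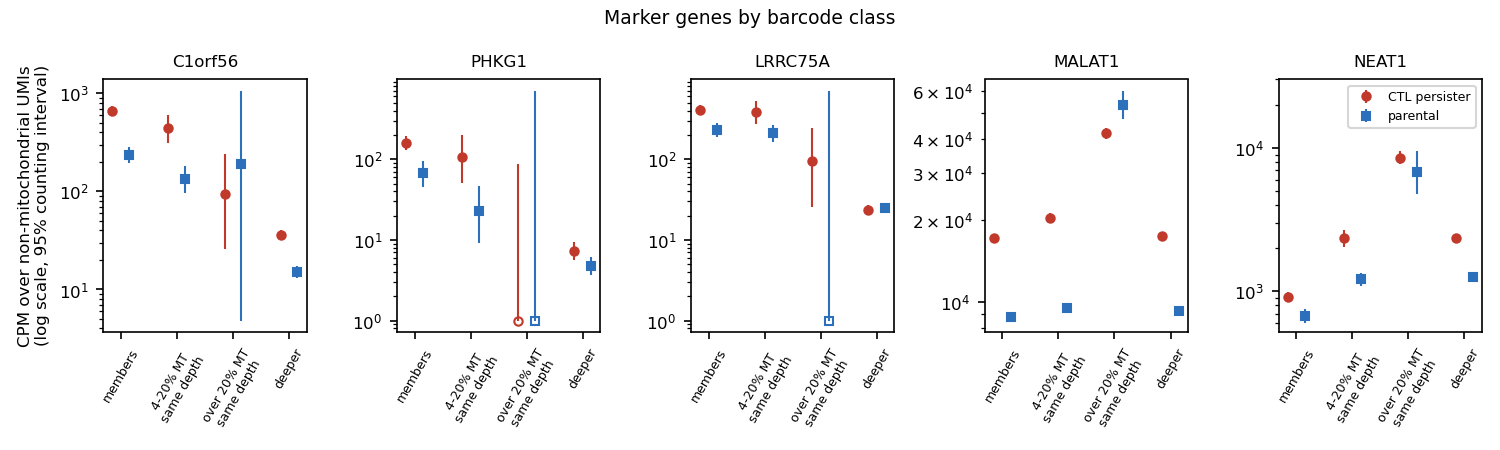
Level of the 5 marker genes (CPM over non-mitochondrial UMIs, log scale, with 95% counting intervals) in 4 classes of barcodes: shallow barcodes (members), barcodes of the same depth with 4 to 20% and with over 20% mitochondrial UMIs, and deeper barcodes. Red circles are the persister and blue squares the parental library, and open symbols at 1 CPM are classes with 0 UMIs. C1orf56, PHKG1 and LRRC75A are far above the deeper barcodes, while MALAT1 is level with them and NEAT1 lies below.

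Just outside the limits of 4% mitochondrial UMIs and 3000 UMIs the 3 genes were lower than just inside. Just outside the limit of 1000 UMIs they were higher. Summed, they were at 1181 CPM in the 41 persister barcodes with 3 to 4% mitochondrial UMIs and at 787.8 CPM in the 20 with 4 to 5%. They were at 1011 CPM in the 34 persister barcodes of 2500 to 3000 UMIs and at 682.7 CPM in the 14 of 3000 to 3500 UMIs. Below the lower limit, the 103 persister barcodes of 750 to 1000 UMIs had 1391 CPM, beside 1281 CPM in the 92 nearest above it. The same parental pairs were 456.3 CPM (46 barcodes inside 4%) and 252.8 CPM (43 outside), 431.0 CPM (87 inside 3000 UMIs) and 294.1 CPM (39 outside), and 733.5 CPM (50 inside 1000 UMIs) and 986.2 CPM (48 outside). The counting intervals overlapped within each of these pairs. The drop past 4% did not extend to the next bin. Among barcodes of 1000 to 3000 UMIs with under 2 T cell markers, the sum at 5 to 8% mitochondrial UMIs was 1207 CPM (23 persister) and 480.5 CPM (59 parental). At 8 to 20% it was 601.3 CPM (11 persister) and 283.9 CPM (25 parental). All barcodes of the same depth with 4 to 20% mitochondrial UMIs and under 2 T cell markers had 439.3 (persister) and 132.9 CPM (parental) of C1orf56, below the 669.5 and 237.5 CPM of the shallow barcodes.

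Along depth the 3 genes were far lower in the deepest barcodes at either mitochondrial share. In persister barcodes under 4% mitochondrial UMIs their sum was 1305, 1152, 1405 and 1011 CPM (812.3 to 1245 in the last) in the bins from 1000 to 3000 UMIs, 417.4 CPM (331.4 to 518.7) at 3000 to 4000 and 36.4 CPM above 10000 UMIs. In persister barcodes with 4 to 20% it was 683.2 CPM at 1000 to 1500 UMIs, 316.4 CPM at 3000 to 4000 and 41.6 CPM above 10000. These bins include barcodes with 2 or more T cell markers, 15 of 31 at 1000 to 1500 UMIs and 24 of 93 at 3000 to 4000. Under 4% such barcodes were 0 of 171 at 1000 to 1500 UMIs, so the 2 mitochondrial shares differ in T cell content too. Parental barcodes under 4% had 685.8 CPM at 1000 to 1500 UMIs, 342.2 CPM at 3000 to 4000 and 32.2 CPM above 10000. Deeper persister barcodes under 4% had 90.4 CPM and those with 4 to 20% had 50.5 CPM.

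Ribosomal protein mRNA differed between the same neighbouring depth bins. It made up 16.7 to 16.9% of non-mitochondrial UMIs in all 4 depth bins of shallow persister barcodes, and 26.1% in the next bin, at 3000 to 4000 UMIs and under 4% mitochondrial UMIs. Shallow parental barcodes had 17.8%, 17.7% and 19.2% in the bins up to 2500 UMIs and 24.5% at 2500 to 3000, the same as the 24.5% found at 3000 to 4000. The 14 persister barcodes of 3000 to 3500 UMIs were still at 20.2% pooled, with a median of 17.3% per barcode.

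**Figure D3:**
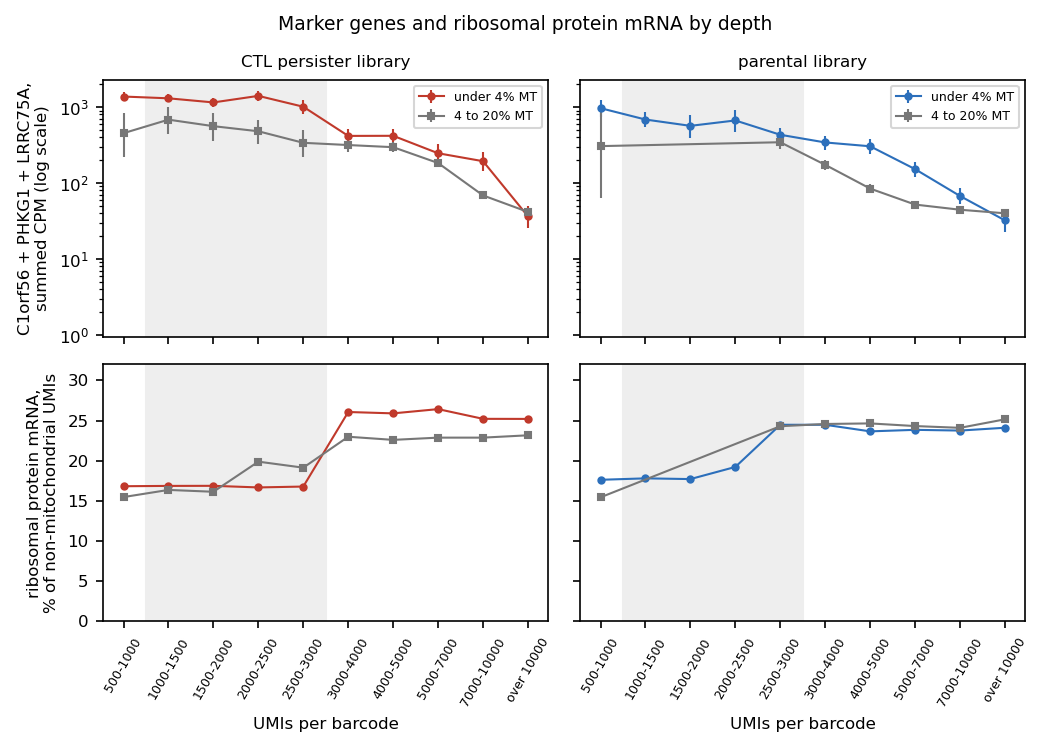
Summed level of C1orf56, PHKG1 and LRRC75A (top, CPM, log scale, with 95% counting intervals) and share of ribosomal protein mRNA (bottom, % of non-mitochondrial UMIs) by UMIs per barcode, for barcodes with under 4% (coloured) and 4 to 20% (grey) mitochondrial UMIs. Bins of fewer than 10 barcodes are not drawn, and the shaded range is the depth of the shallow barcodes. Barcodes with 2 or more T cell markers are included, 15 of the 31 persister barcodes with 4 to 20% at 1000 to 1500 UMIs. In persister barcodes under 4% mitochondrial UMIs the 3 genes are at 1011 to 1405 CPM up to 3000 UMIs and at 417.4 CPM in the next bin, where the ribosomal share is 26.1%. The parental ribosomal share reaches 24.5% at 2500 to 3000 UMIs.

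Shallow persister barcodes exceeded deeper ones at least 2-fold in 528 of 3233 measured genes (16.3%) and were at least 2-fold lower in 190 (5.88%). Among 3090 genes measured in the parental library, 46 were higher (1.49%) and 29 lower (0.939%). These counts rest on the scaling and on the barcodes used for comparison. The median measured gene lay 0.38 (persister) and 0.09 (parental) above 0 on the log2(CPM + 1) scale, a scale that understates the difference of low genes. When sums were scaled by TMM, which centres the bulk of genes, 74 were higher and 521 lower in the persister library, so higher genes made up 12.4% of the called ones in place of 73.5%. By the median of ratios 90 were higher and 491 lower (15.5%), and over all UMIs 657 and 144 (82.0%). Parental higher genes were 61.3% of those called, 18.3% by TMM, 20.5% by the median of ratios and 77.3% over all UMIs. Shallow barcodes were also set against those of the same depth with 4 to 20% mitochondrial UMIs and under 2 T cell markers. In the persister library 325 of 3524 measured genes were then at least 2-fold higher and 327 lower, so higher genes were 49.85% of those called. The parental counts were 117 higher and 65 lower of 3128, or 64.3% higher.

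The parental count depended on depth. The 150 shallow parental barcodes under 2500 UMIs exceeded deeper ones at least 2-fold in 423 of 3261 measured genes (13.0%) and were lower in 204 (6.26%), shares close to those of the persister library. Among genes measured in both libraries, 205 were higher in both, which is 46.6% of the 440 higher in the persister library and 63.3% of the 324 higher in these parental barcodes. Another 95 were lower in both, 59.4% of the 160 and 55.2% of the 172, and 1 gene went opposite ways. With all shallow parental barcodes 29 genes were higher in both libraries, 7.27% of the 399 persister and 87.9% of the 33 parental ones. Across 2696 genes the log2 folds of the 2 libraries had a Pearson r of 0.86 and a Spearman rho of 0.87. The libraries share no barcode sums, but genes are not independent of each other, and both axes share the same genes' length and base composition.

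After PHKG1, C1orf56 and LRRC75A, the largest persister folds belonged to genes of varied roles. HIST1H2AH, a replication-dependent histone, was at 97.3 against 18.3 CPM, 5.33-fold higher (3.87 to 7.26). DLGAP5, a spindle protein, was at 167.8 against 44.6 CPM, and at 272.3 against 110.2 CPM in the parental library. CCNB1, the cyclin of mitotic entry, was at 382.6 against 119.6 CPM and at 638.4 against 350.3 CPM. KIF14, a mitotic kinesin, and PRIM1, a DNA primase subunit, were 3.25-fold and 3.27-fold higher in shallow persister barcodes, as were ESM1, an endothelial proteoglycan (3.54-fold), DYNC2H1, a ciliary dynein (3.40-fold), RNF219 (3.34-fold) and UBE2V1, a ubiquitin-conjugating enzyme variant (3.35-fold). In the parental library CTNNB1, which encodes beta-catenin, was at 246.2 against 77.7 CPM, GABARAP, an autophagy protein, at 80.6 against 30.7 CPM, and DEPDC1B, PIBF1 and IMPA1 were 2.55-fold, 2.37-fold and 2.34-fold higher. At the other end, THUMPD3-AS1, an antisense RNA, was at 16.8 against 85.7 CPM, ZNF580, a zinc finger protein, at 21.8 against 97.2 CPM and SWI5, a DNA repair factor, at 18.5 against 81.6 CPM in the persister library. CARD19 was at 28.3 against 83.1 CPM and CD320, a receptor for vitamin B12 uptake, at 82.8 against 220.7 CPM in the parental library.

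Genes of the cell cycle were higher as groups. The G2 and M phase list summed to 8237 against 4473 CPM in the persister library, 1.84-fold (1.79 to 1.90), and 20 of 35 measured members were at least 2-fold higher and 0 lower. The parental sum was 12528 against 9122 CPM, 1.37-fold (1.34 to 1.41), with 5 of 46 higher and 0 lower. The median measured member lay at 1.18 on the log2 scale in the persister library, beside 0.38 for all measured genes. Examples in the persister library are HMMR (191.3 against 70.0 CPM), ANLN, which encodes anillin (88.9 against 31.7 CPM), and KIF20B (196.3 against 70.4 CPM). The S phase list was 1.80-fold (persister, 7 of 20 higher) and 1.23-fold (parental, 1 of 27 higher), with the licensing factor CDC6 at 97.3 against 39.6 CPM and the helicase subunit MCM4 at 120.8 against 44.7 CPM in the persister library. Both lists stayed above 1 under each scaling in both libraries. The shares of all measured genes at least 2-fold higher were 16.3% (persister) and 1.49% (parental), and the parental S phase count is a single gene.

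Replication-dependent histones, whose mRNAs lack a poly(A) tail in dividing cells, split. In the persister library 6 of 7 measured ones were at least 2-fold higher, such as HIST2H2AC (281.9 against 91.6 CPM) and HIST1H1B (90.6 against 31.8 CPM). In the parental library 0 of 8 were higher and 1 lower, and under 2500 UMIs 7 of 9 were higher and 1 lower. The shares of all measured genes that were higher were 16.3% (persister), 1.49% (parental) and 13.0% (parental under 2500 UMIs). HIST1H4C was lower, at 333.9 against 1230 CPM in the persister library and 1131 against 2709 CPM in the parental library. Without HIST1H4C the histones summed to 2.54-fold (persister) and 1.71-fold (parental), and with it to 1.37-fold and 0.990-fold.

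Ribosomal protein genes were lower. They summed to 168098 against 230522 CPM in the persister library, a fold of 0.729 (0.725 to 0.734), and to 213905 against 243844 CPM in the parental library, a fold of 0.877 (0.872 to 0.883). Of 80 measured members 12 (persister) and 1 (parental) were at least 2-fold lower and 0 higher. The shares of all measured genes that were lower were 5.88% (persister) and 0.939% (parental), so the parental count was near that of all genes. RPS20, of the small subunit, was at 224.8 against 814.8 CPM in the persister library and 440.1 against 1114 CPM in the parental library. The median measured ribosomal gene was at -0.51 on the log2 scale in the persister library. Low ribosomal shares were not particular to the shallow persister barcodes, which had 16.8% pooled. Persister barcodes of the same depth had 18.1% at 4 to 20% mitochondrial UMIs with under 2 T cell markers, and 13.3% at over 20%. In the parental library shallow barcodes had 21.4%, and those of the same depth with 4 to 20% had 23.7%. Reads of ribosomal protein, histone and HLA genes are uncertain between near-identical copies. Per barcode, the ribosomal share had a median of 16.9% in shallow persister barcodes (5th to 95th percentile 12.8 to 20.8%), against 22.9% in deeper ones (17.8 to 28.6%). The parental medians were 19.1% (15.4 to 29.7%) against 24.2% (21.0 to 28.3%), so the upper range of the shallow parental barcodes covers that of the deeper ones.

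Nuclear-encoded respiratory chain genes were lower too, although the rule read only mitochondrially encoded ones. They summed to 21481 against 32030 CPM, a fold of 0.671 (0.659 to 0.683), in the persister library, where 15 of 68 measured members were at least 2-fold lower and 1 higher. The parental fold was 0.845 (0.830 to 0.860), with 0 of 70 past 2-fold in either direction. Under 2500 UMIs 12 of 70 were at least 2-fold lower and 1 higher. The shares of all measured genes that were lower were 5.88% (persister), 0.939% (parental) and 6.26% (parental under 2500 UMIs). Those higher were 16.3%, 1.49% and 13.0%. NDUFA11, a complex I subunit, was at 199.7 against 593.0 CPM, UQCR11, of complex III, at 146.0 against 478.6 CPM, and ROMO1, a small mitochondrial membrane protein, at 179.5 against 663.8 CPM in the persister library. Abundant cytosolic mRNAs had folds of 0.684 (persister) and 0.898 (parental). LGALS1, which encodes galectin-1, was at 1097 against 2806 CPM and FTL, the ferritin light chain, at 1164 against 2566 CPM in the persister library, while ENO1, a glycolytic enzyme of the same list, was at 2512 against 1304 CPM. The 3 lists, ribosomal, respiratory and cytosolic, were below 1 under each scaling in both libraries. Persister barcodes of the same depth with over 20% mitochondrial UMIs held 19754 CPM of respiratory and 38083 CPM of cytosolic genes. Shallow persister barcodes held 21481 and 39916 CPM. Those of the same depth with 4 to 20% mitochondrial UMIs and under 2 T cell markers held 25813 and 52130 CPM.

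Among mRNAs translated at the endoplasmic reticulum, the chaperones HSPA5 and PDIA3 were higher in the persister library, while the direction of TIMP1 depended on the deeper barcodes used. HSPA5, the chaperone BiP, was at 2203 against 793.6 CPM, 2.78-fold (2.61 to 2.95), and at 939.0 against 538.9 CPM in the parental library. PDIA3, a disulfide isomerase, was at 555.4 against 212.7 CPM and 505.5 against 264.0 CPM. TIMP1, a secreted metalloproteinase inhibitor, was at 4141 against 8897 CPM in the persister library and 281.1 against 378.3 CPM in the parental library. Against deeper persister barcodes under 4% mitochondrial UMIs TIMP1 was higher, by 0.75 on the log2 scale. At 1500 UMIs HSPA5 was seen in 90.2% of shallow against 62.4% of deeper persister barcodes, and in 61.9% against 50.3% of parental ones. Of 25 measured members of the secretory list 7 were at least 2-fold higher and 1 lower in the persister library. In the parental library 0 of 24 passed 2-fold in either direction, and 8 of 26 were higher in the barcodes under 2500 UMIs. Of all measured genes 16.3% were higher in the persister library and 13.0% in the parental barcodes under 2500 UMIs. The list summed to a fold of 0.966 in the persister library (1.44 without TIMP1, 1.03 over all UMIs and 0.730 by TMM) and 1.26 in the parental library. In the 131 deeper persister barcodes under 4% mitochondrial UMIs the list held 0.996% of non-mitochondrial UMIs, below the 1.77% of shallow ones. The parental values were 0.827% and 1.13%. Persister barcodes of the same depth with 4 to 20% mitochondrial UMIs and under 2 T cell markers held 17155 CPM of the list. Shallow persister barcodes held 17663 CPM, and those of the same depth with over 20% held 25262 CPM.

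Heat-shock genes summed to 1.37-fold (persister, 3 of 11 measured higher) and 1.19-fold (parental, 0 of 11 higher), above 1 under each scaling. Of all measured genes 16.3% (persister) and 1.49% (parental) were at least 2-fold higher. The mitochondrial chaperonin HSPD1 was at 1198 against 554.4 CPM in the persister library. Targets of NF-kB, a stress and inflammation factor, summed to 1.44-fold in the persister library (1 of 11 higher), where CXCL8, a neutrophil chemokine, was at 374.2 against 141.4 CPM. The parental fold of that list was 1.12, and 0.991 by TMM. Genes of the integrated stress response, which answers amino acid and protein folding stress, had folds of 1.21 (persister, 0.917 by TMM) and 1.23 (parental). Translation factors were at 1.04 and 1.02 and apoptosis and p53 targets at 1.01 and 1.06, all 4 below 1 by TMM. Melanoma markers were present, summing to 5589 against 5131 CPM (persister) and 5495 against 5087 CPM (parental), and 18 of 24 had a UMI in the shallow barcodes of each library. Those sums are led by SERPINE2 and VIM, at 2193 and 2183 CPM in shallow persister barcodes. By TMM the folds of the sums were 0.823 (persister) and 0.952 (parental). Of 8 measured members 2 were higher than in deeper barcodes in the persister library, with a median log2 fold of -0.74. In the parental library 3 of 8 were higher, with a median of -0.11. SOX10, the melanocyte lineage factor, was at 127.5 against 197.0 CPM (persister) and 54.5 against 109.3 CPM (parental), and MLANA, TYR, TYRP1 and PMEL had 0 UMIs in shallow barcodes. In the thinned deeper barcodes PMEL, a pigment granule gene, had 4 parental UMIs and the other three genes 0.

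**Figure D4:**
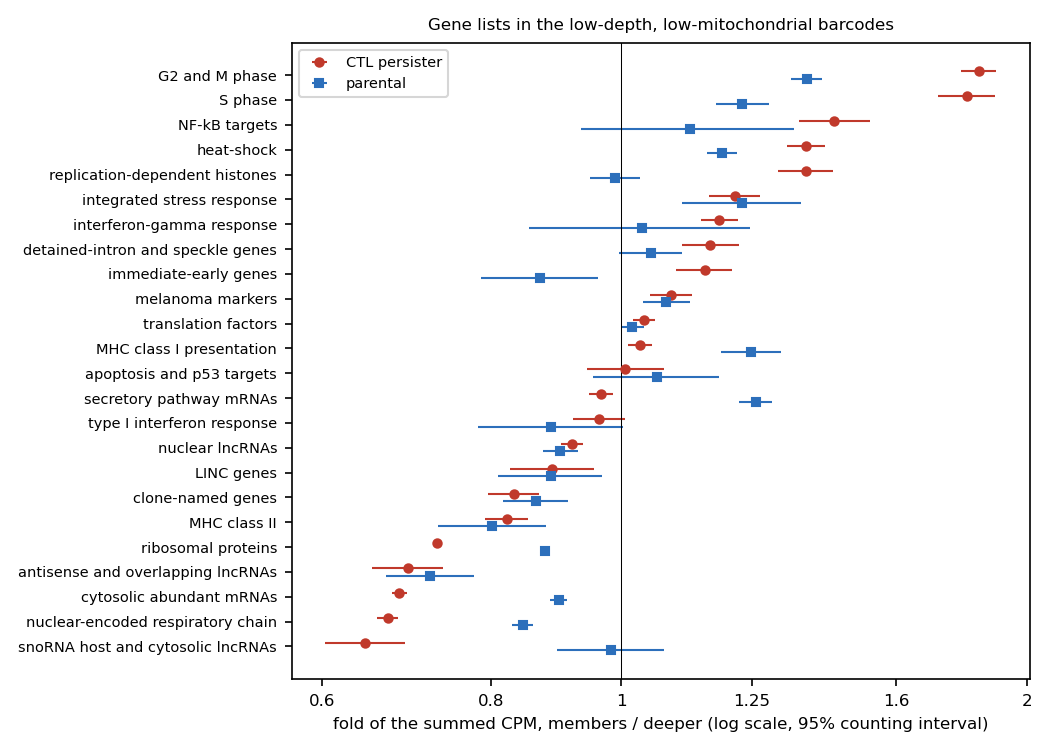
Fold of the summed CPM of each gene list in shallow barcodes (members) over deeper barcodes (log scale), with 95% counting intervals. Red circles are the persister and blue squares the parental library, and the line marks equal levels. Cell cycle lists lie to the right, at 1.84 for G2 and M phase in the persister library, and ribosomal, respiratory and cytosolic lists to the left, at 0.729, 0.671 and 0.684.

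The fold of a gene followed its transcript's length and base composition. In the persister library the median log2 fold was -0.15 for the 699 measured genes with annotated transcripts under 800 bases, 0.55 for 675 genes of 1500 to 2500 bases and 0.74 for 371 genes over 4000 bases. By GC content the median log2 fold was 0.78 for 781 genes under 42% GC and -0.41 for 809 genes over 54% GC. Of the GC-poor genes 31.2% were at least 2-fold higher, and of the GC-rich ones 3.09%. The parental library had the same order with smaller values: -0.07, 0.15 and 0.40 by length, and 0.42 and -0.26 by GC content. Across genes Spearman's rho was -0.50 (persister) and -0.49 (parental) with GC content and 0.40 and 0.29 with length, as descriptions over 3233 and 3090 genes that share libraries and depth. Within genes under 800 bases, rho with GC content was -0.48 in the persister library. Between deeper persister and deeper parental barcodes rho was 0.01 with length and -0.05 with GC content. C1orf56, PHKG1 and LRRC75A do not share the feature of low GC content, at 51.6%, 57.2% and 61.0%.

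**Figure D5:**
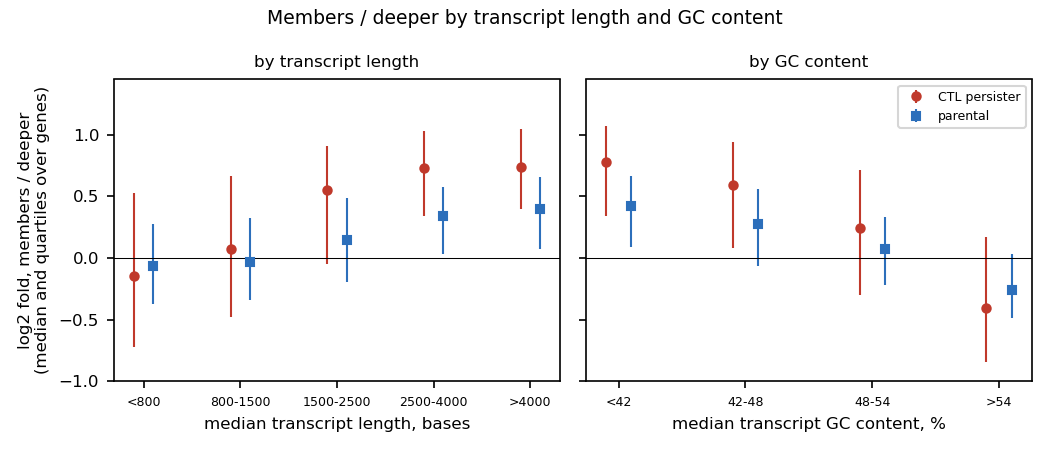
Log2 fold of shallow (members) over deeper barcodes, as the median and quartiles over measured genes, by median transcript length (left, bases) and GC content (right, %). Red circles are the persister and blue squares the parental library. Medians climb with length, to 0.74 in the persister library, and drop with GC content, to -0.41.

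Shallow parental barcodes differed between 2 depth ranges. The 150 under 2500 UMIs resembled the persister ones: their folds were 0.744 (0.737 to 0.751) for ribosomal genes, 0.674 (0.656 to 0.693) for respiratory genes, 1.55 (1.493 to 1.602) for G2 and M phase and 1.55 (1.496 to 1.606) for the secretory list. The 87 of 2500 to 3000 UMIs had folds of 1.00 (0.997 to 1.01), 1.01 (0.986 to 1.03), 1.21 (1.16 to 1.26) and 0.978 (0.936 to 1.02) for the same lists. The nuclear list was at 1.03 (0.991 to 1.07) below and 0.776 (0.741 to 0.812) above 2500 UMIs. C1orf56 was at 298.3 CPM below 2500 UMIs and 179.2 CPM above, both higher than 15.1 CPM in deeper parental barcodes. Shallow persister barcodes showed no such split in ribosomal genes, at 0.729 in the 331 under 2500 UMIs and 0.728 in the 34 above. Respiratory genes were at 0.673 and 0.655, G2 and M phase at 1.835 and 1.878, and the secretory list at 0.9715 and 0.9341. The nuclear list did differ, at 0.903 (0.885 to 0.923) below and 1.009 (0.962 to 1.057) above. T cell markers and cytotoxic effectors also differed, as given below.

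Interferon-gamma response genes were near the level of deeper barcodes in shallow persister barcodes. The interferon-gamma response list summed to 7126 against 6027 CPM, 1.18-fold (1.15 to 1.22), which turned to 0.894 by TMM and 0.912 by the median of ratios. Of 14 measured members 2 were at least 2-fold higher (CTSS, an antigen-processing protease, at 622.5 against 298.0 CPM, and APOL6) and 0 lower, a share near the 16.3% of all measured genes that were higher. IRF1, the transcription factor induced by interferon-gamma, was at 1071 against 1081 CPM, a fold of 0.990 (0.913 to 1.07). GBP1 was at 221.5 against 185.3 CPM and CXCL10, a T cell chemoattractant, at 120.8 against 78.1 CPM. At 1500 UMIs a shallow persister barcode held a median of 10 UMIs of the list (2 to 25), against 8 (0 to 29) in deeper ones. The parental list was at 257.1 against 248.2 CPM, and the median barcode held 0 of its UMIs in both classes.

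Type I interferon genes went both ways in shallow persister barcodes, with 4 of 18 measured at least 2-fold higher and 4 lower. Of all measured persister genes 16.3% were higher and 5.88% lower. The summed fold of the type I list was 0.963 (0.920 to 1.01). SAMD9L and SAMD9, antiviral proteins, were at 181.2 against 76.2 CPM and 238.3 against 108.6 CPM. IFITM3, a membrane protein that blocks virus entry, was at 233.2 against 701.8 CPM, ISG15, a ubiquitin-like modifier, at 186.2 against 378.0 CPM, and IFI6 at 62.1 against 144.3 CPM. MHC class I presentation genes were at 1.03-fold (0.780 by TMM), with 2 of 15 measured higher, again near the 16.3% of all genes, and 0 lower. B2M, the class I light chain, was at 9319 against 7904 CPM, HLA-B, a heavy chain, at 2217 against 3681 CPM, and the chaperone CANX (calnexin) at 520.2 against 245.7 CPM. MHC class II genes were at 0.822-fold (persister) and 0.802-fold (parental), below 1 under each scaling, with CD74, the invariant chain, at 2920 against 3866 CPM in the persister library.

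IFNG, the cytokine of activated T cells, had 19 UMIs in 8 of 365 shallow persister barcodes, or 31.9 CPM, against 12 UMIs or 1.46 CPM in the thinned deeper barcodes, 21.8-fold (10.1 to 49.3). Among shallow persister barcodes under 2% mitochondrial UMIs it had 2 UMIs, and the fold was 4.75 (0.517 to 21.4), an interval that includes 1. At 1500 UMIs it was seen in 5 of 194 shallow barcodes, 2.58% (0.842 to 5.91%), against 8 of 5942 deeper ones, 0.135%. Without thinning it was in 8 of 365, 2.19%, against 26 of 5942. At 1500 UMIs 0 of 147 shallow parental barcodes had it, so shares up to 2.04% remain possible, and 0 of 9094 deeper ones, so shares up to 0.0330% remain possible. The most UMIs in 1 shallow barcode was 5, and 5 of the 8 had 1 UMI. T cell RNA accompanied it in part. Of the 8 barcodes 2 held UMIs of 2 or more T cell markers (6 of the 19 UMIs), 6 held none of them, and 7 held another cytotoxic effector. IFNG was more abundant in barcodes of the same depth with 4 to 20% mitochondrial UMIs, with 163 UMIs in 33 of 122 barcodes, and 158 of those UMIs were in barcodes with 2 or more T cell markers.

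T cell markers summed to 90.6 against 48.8 CPM in the persister library, 1.86-fold (1.37 to 2.47), and to 43.6 against 40.5 CPM in the parental library. The 34 shallow persister barcodes of 2500 to 3000 UMIs were at 5.82-fold (3.72 to 8.72), and the 331 below at 1.17-fold (0.773 to 1.71). Among the 34, 2 held 2 or more T cell markers, as did 2 of the 331. How much of these folds such few barcodes carry was not tested, and the intervals do not cover UMIs clustered in few barcodes. In shallow persister barcodes 14 of 24 had a UMI, and CD247, CD5, CD8B, CD27, CD28, TRBC1, IL2RG, SIT1, TRGC1 and TRGC2 were at 0. Shallow parental barcodes had UMIs of 3 of 24, mostly IL7R with 17 UMIs. Per barcode at 1500 UMIs the list ranged from 0 to 9 UMIs in shallow and 0 to 21 in deeper persister barcodes. Markers of B cells and monocytes had 3 UMIs in the shallow barcodes of each library, with 13 of 14 at 0. Cytotoxic effectors were at 218.1 against 69.2 CPM (persister) and 6.54 against 2.42 CPM (parental). The persister fold was 9.86 (7.42 to 12.9) at 2500 to 3000 UMIs and 1.99 (1.53 to 2.56) below, with the same limit as for the T cell markers. At 1500 UMIs any T cell marker was seen in 8.76% of shallow and 3.70% of deeper persister barcodes. Without thinning, 2 or more T cell markers were held by 1.10% of 365 shallow barcodes (median 1567 UMIs) and 3.30% of 5942 deeper ones (median 11926 UMIs). The part of T cell RNA in the IFNG of shallow barcodes was not tested.

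Shallow persister barcodes were also set against shallow parental barcodes, beside the same comparison of the deeper ones. They exceeded them at least 2-fold in 458 of 3398 measured genes (13.5%) and were lower in 263 (7.74%), while between deeper persister and deeper parental barcodes 276 of 2994 were higher (9.22%) and 252 lower (8.42%). The interferon-gamma list was 27.7-fold higher (23.1 to 33.6) in shallow and 24.3-fold in deeper persister barcodes, and the type I list 6.003-fold and 5.535-fold. MHC class I genes were 4.85-fold and 5.87-fold higher, MHC class II genes 5.04-fold and 4.92-fold, and integrated stress response genes 4.15-fold and 4.20-fold. Cell cycle genes were lower in both, at folds of 0.658 and 0.490 for G2 and M phase and 0.684 and 0.466 for S phase. Abundant cytosolic mRNAs were at 0.901 in shallow and 1.18 in deeper barcodes, on opposite sides of 1, and host genes of small nucleolar RNAs at 1.38 and 2.10. Ribosomal genes were at 0.786 in shallow and 0.945 in deeper barcodes, and C1orf56 was at 669.5 CPM in shallow persister and 237.5 CPM in shallow parental barcodes. The differences between the shallow and deeper folds were not tested, and the shallow parental barcodes of 2500 to 3000 UMIs, 87 of 237, enter the first of each pair.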

How the data were processed

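Single-cell RNA sequencing counts were taken from 1 persister and 1 parental library. The authors deposited UMI counts per gene and barcode, whole numbers that are not normalized, as matrices with gene and barcode lists. Cell Ranger 3.1.0 and GRCh38 are named in the submitters' processing notes, and the sources used here do not name the annotation release. Of 33538 gene IDs, 33456 matched GENCODE 29, which gave position, transcript length, GC content and exon overlaps. Barcodes were chosen as described, with no member lost to the gene minimum. No doublet caller was run and 0 barcodes were removed as doublets. Counts were summed per class with Python 3.11.15, numpy 2.4.6, pandas 2.3.3 and scipy 1.17.1. Genes with a mean of at least 50 CPM over both classes were called measured, and calls are at least 2-fold on log2(CPM + 1). Intervals at 95% are exact Poisson for CPM, binomial for ratios and Clopper-Pearson for shares. A count of 0 was read as allowing 3 counts. TMM factors came from edgeR 4.0.16, used only to scale. Steps were tested on simulated data. The gene lists number 28.

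Named genes were the 12 measured genes of largest log2 fold in each direction in each library, up to 4 measured genes of each list of largest absolute log2 fold in persister barcodes, and a fixed set (the 5 markers, IFNG, IRF1, B2M, CXCL10, GBP1, ISG15 and IFI6). SUMF2, SOX10, SERPINE2, VIM and single T cell markers were named after their values were seen. The barcodes, markers and lists were chosen with earlier results of these data known. Some genes are not analysed here.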

Additional observations from a re-analysis of the deposited data

Results flagged for a closer look

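Of the gene lists compared, 2 lay above the deeper barcodes in 1 library and below them in the other, with counting intervals on opposite sides of 1. The secretory list had a summed fold of 0.966 in shallow persister barcodes and 1.258 in shallow parental barcodes. The persister direction depends on the deeper barcodes used. The list made up 1.77% of non-mitochondrial UMIs in shallow persister barcodes and 0.996% in deeper ones under 4% mitochondrial UMIs. In the persister library TIMP1 alone took 4141 of its 17663 CPM in shallow and 8897 of 18285 CPM in deeper barcodes, and without TIMP1 the folds were 1.44 (persister) and 1.28 (parental). Immediate-early genes had a summed fold of 1.153 in the persister and 0.8707 in the parental library, where the persister value was 0.871 by TMM. In shallow parental barcodes under 2500 UMIs that list was at 1.00 (0.877 to 1.14). These differences between libraries were not tested, since each group has 1 library.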

How the results depend on the processing

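Depth limits the shallow barcodes: their sums hold 608566 (persister) and 469095 UMIs (parental), and no gene of few UMIs in 1 barcode can be read. No paired analysis was possible because each group has 1 library. Across 177 alternative values of the main results, 110 were unchanged within counting error or 1.5 times, 64 moved and 3 reversed. Among single genes 3572 were unchanged, 128 moved and 6 reversed. The causes were not tested, apart from fewer genes or barcodes entering by construction.

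Persister counts of genes at least 2-fold higher and lower (528 and 190) were 74 and 521 by TMM, 90 and 491 by the median of ratios, 929 and 317 from 20 CPM, 277 and 125 from 100 CPM, and 2375 and 1731 with no filter. Parental counts (46 and 29) were 15 and 67 by TMM, 16 and 62 by the median of ratios, 167 and 80 with all barcodes thinned to 1000 UMIs, 134 and 104 for shallow barcodes under 2% mitochondrial UMIs, 506 and 226 for those of 1000 to 2000 UMIs, 177 and 110 from 20 CPM, 23 and 8 from 100 CPM, 1289 and 1908 with no filter, 22 and 13 with a pseudocount of 10, and 423 and 204 under 2500 UMIs. Over all UMIs 17 parental genes were lower, and 81, 91 and 83 were higher with shallow barcodes thinned to 1500 UMIs, with deeper barcodes of at least 10000 UMIs and with deeper barcodes under 4% mitochondrial UMIs.

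Shares of shallow barcodes were 2.42% (persister) and 1.05% (parental) under 2% mitochondrial UMIs, 3.77% and 1.15% at 1000 to 2000 UMIs, and 1.40% in the parental library under 2500 UMIs. The persister fold of nuclear long non-coding RNAs was 0.977 over all UMIs, 0.694 by TMM, 0.709 by the median of ratios, 0.963 against deeper barcodes of at least 10000 UMIs and 1.406 against those under 4% mitochondrial UMIs. The parental fold was 0.938 over all UMIs, 0.794 by TMM, 0.807 by the median of ratios, 0.940 thinned to 1500 UMIs, 0.791 under 2% mitochondrial UMIs, 0.943 at 1000 to 2000 UMIs and 1.03 under 2500 UMIs. Clone-named genes in the persister library were at 0.885 over all UMIs, 0.629 by TMM, 0.642 by the median of ratios, 0.795 under 2% mitochondrial UMIs and 0.920 against deeper barcodes under 4%. In the parental library they were at 0.761 by TMM, 0.774 by the median of ratios and 0.932 against deeper barcodes under 4%.

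The persister interferon-gamma list was at 1.26 over all UMIs, 0.894 by TMM, 0.912 by the median of ratios, 1.22 at 1000 to 2000 UMIs and 1.265 against deeper barcodes under 4%. The IFNG fold was 4.75 (0.517 to 21.4) under 2% mitochondrial UMIs, from 2 UMIs. It was 89.1 (21.5 to 788.8) against deeper barcodes of at least 10000 UMIs, which held 2 UMIs, and 175.8 without barcodes of 2 or more T cell markers, a filter that depends on depth and left 1 UMI in the deeper barcodes. The log2 fold of TIMP1 was 0.75 against deeper persister barcodes under 4%. In the parental library APOA4 was at 0.00 on the log2 scale and APOA1 at -0.21 under 2% mitochondrial UMIs and without barcodes found in both libraries, and APOA4 also at 0.00 thinned to 1500 UMIs. Settings with members under 2500 UMIs, deeper barcodes under 4% and without barcodes found in both libraries were chosen after seeing the data.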

Other observations

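One shallow parental barcode of 1318 UMIs and 3.64% mitochondrial UMIs held 121 UMIs of APOA4 and 53 of APOA1, apolipoproteins of intestine and liver, and its leading genes included APOC3, RBP2, FABP1 and SELENOP. It accounts for nearly the whole parental sum of 263.6 CPM (APOA4) and 119.8 CPM (APOA1) in shallow barcodes, which made these the highest folds there. A persister barcode of 898 UMIs, outside the shallow class, held 98 UMIs of APOA4 and 23 of APOA1, and the sequences of both barcodes were found in both libraries.

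Shallow parental barcodes with under 1% mitochondrial UMIs, 22 in all, had 27.9% ribosomal protein mRNA, 3148 CPM of MALAT1 and 97.2 CPM of C1orf56, PHKG1 and LRRC75A summed. The 13 such persister barcodes had 16.8%, 19230 CPM and 1107 CPM.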
